A study of Mus musculus with 30 samples.

Results

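The 43 genes described here are interferon-stimulated genes, named as a set and taken by gene name or synonym from the probes of a mouse expression array. Of these, 42 had at least 1 probe (Xaf1, a factor that binds an inhibitor of cell death, had none), and the brightest probe stood for its gene. Oas1g, an oligoadenylate synthetase, had 1 probe, which was well above background in E2A-/- replicate 1 alone and was left out. The remaining 41 genes were tested among 12839 genes in all. The files name Irf9 Isgf3g, Dhx58 D11Lgp2e and Irgm1 Irgm.

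Type I interferons bind a receptor on nearly every cell, and the JAK kinases there phosphorylate Stat2, which joins Irf9 in a complex that binds interferon-stimulated response elements (ISREs) in promoters. Interferon gamma acts through another element, the gamma-activated site (GAS). The genes switched on in this way sense foreign RNA, block steps of viral growth, attack vacuoles that hold microbes, and load peptides on class I molecules, and some of them damp the signal. A low tonic level of the same signal is known in unstimulated bone marrow cells.

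All cells came from C57BL/6 mice. RNA was taken from 3 groups of 2 samples, pre-pro-B cells that lack E2A, pre-pro-B cells that lack EBF1 (labelled EBF-/-) and RAG1-/- pro-B cells. E2A and EBF1 are transcription factors that cells need in order to enter the B lineage, and RAG1 is needed to assemble antigen receptor genes. Both pre-pro-B cultures grew over S17 stroma, fed with FLT3 ligand, SCF and IL-7. RAG1-/- cells were B220+ marrow cells grown for 10 d in Opti-MEM that held SCF and IL-7, with no stromal layer stated. In comparisons with RAG1-/- cells, the genotype and the way of culture cannot be told apart. No agent of the interferon pathway is named in the labels. Peak lists came from 23 ChIP-seq samples and 1 mock immunoprecipitation of lymphoid cells. They cover RAG1-/- cells (E2A, EBF1, FOXO1, CTCF and 5 histone marks), EBF-/- cells (E2A and the same 5 marks), and E2A-/- cells and A12 cells, an E2A-/- T cell line. The last 2 were infected with retrovirus carrying either E47-ER, an E2A protein activated by tamoxifen, or bHLH-ER, and were given 1 µM tamoxifen for 1 or 6 h. RNA of those infected cells was not analysed here.

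The 6 RNA samples lay on 4 arrays of 1 slide and 1 scan, with 40.9 to 61.8% of 43379 spots well above background, and all levels below are log2 of the quantile-normalized processed signal. E2A-/- replicate 1 shared an array with RAG1-/- replicate 1, and E2A-/- replicate 2 shared one with EBF-/- replicate 1. EBF-/- replicate 2 and RAG1-/- replicate 2 lay on separate arrays, whose other channel the labels do not describe. Between replicates, 1048 genes differed by over 2-fold among E2A-/- samples, 600 among EBF-/- samples and 648 among RAG1-/- samples. Tcf3, which encodes E2A, read 10.80 and 9.44 in E2A-/- cells against 13.41 and 13.39 in EBF-/- cells and 14.99 and 14.70 in RAG1-/- cells. Ebf1 read 10.86 and 10.89 in EBF-/- cells and Rag1 10.54 and 11.12 in RAG1-/- cells, both above E2A-/- cells (at most 6.94 and 5.58), and whether these probes lie in the deleted parts is not known here. The 10 pro-B markers averaged 15.64 and 15.35 in RAG1-/- cells, 6.78 and 6.95 in EBF-/- cells, and 10.50 and 6.07 in E2A-/- cells, so the higher E2A-/- value was that of the sample that shared its array with RAG1-/- cells. The labels do not say whether replicates are separate animals or cultures, so p-values measure the spread between these samples, which may be technical. With bulk RNA, fewer cells that express a gene and less RNA per cell cannot be told apart.

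Most interferon-stimulated genes were highest in E2A-/- cells. In EBF-/- against E2A-/- cells, 26 of 41 genes fell (limma, Benjamini-Hochberg adjusted p under 0.05), where 11.6% of all 12839 genes fell, and 1 rose (Irf1), where 12.6% of all genes rose. Of the 26, 21 fell by more than 2-fold. The median log2 difference over the 41 genes was -1.36, against -0.01 over all genes. In RAG1-/- against E2A-/- cells, 25 fell (23% of all genes) and 3 rose (22.8%), with a median of -1.34 against 0.03 over all genes. The RAG1-/- against EBF-/- comparison was less one-sided, with 12 that fell (22.5% of all genes), 5 that rose (21.2%) and a median of -0.10 against 0.04. Both E2A-/- samples lay above all 4 other samples for 31 of the 41 genes, and for 19.1% of all genes. Comparisons that share a group are not independent of each other. With EBF-/- replicate 2, EBF-/- replicate 1 or E2A-/- replicate 2 left out in turn, 9, 12 and 15 of the 41 genes were called between EBF-/- and E2A-/- cells, all of them lower.

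**Figure D1:**
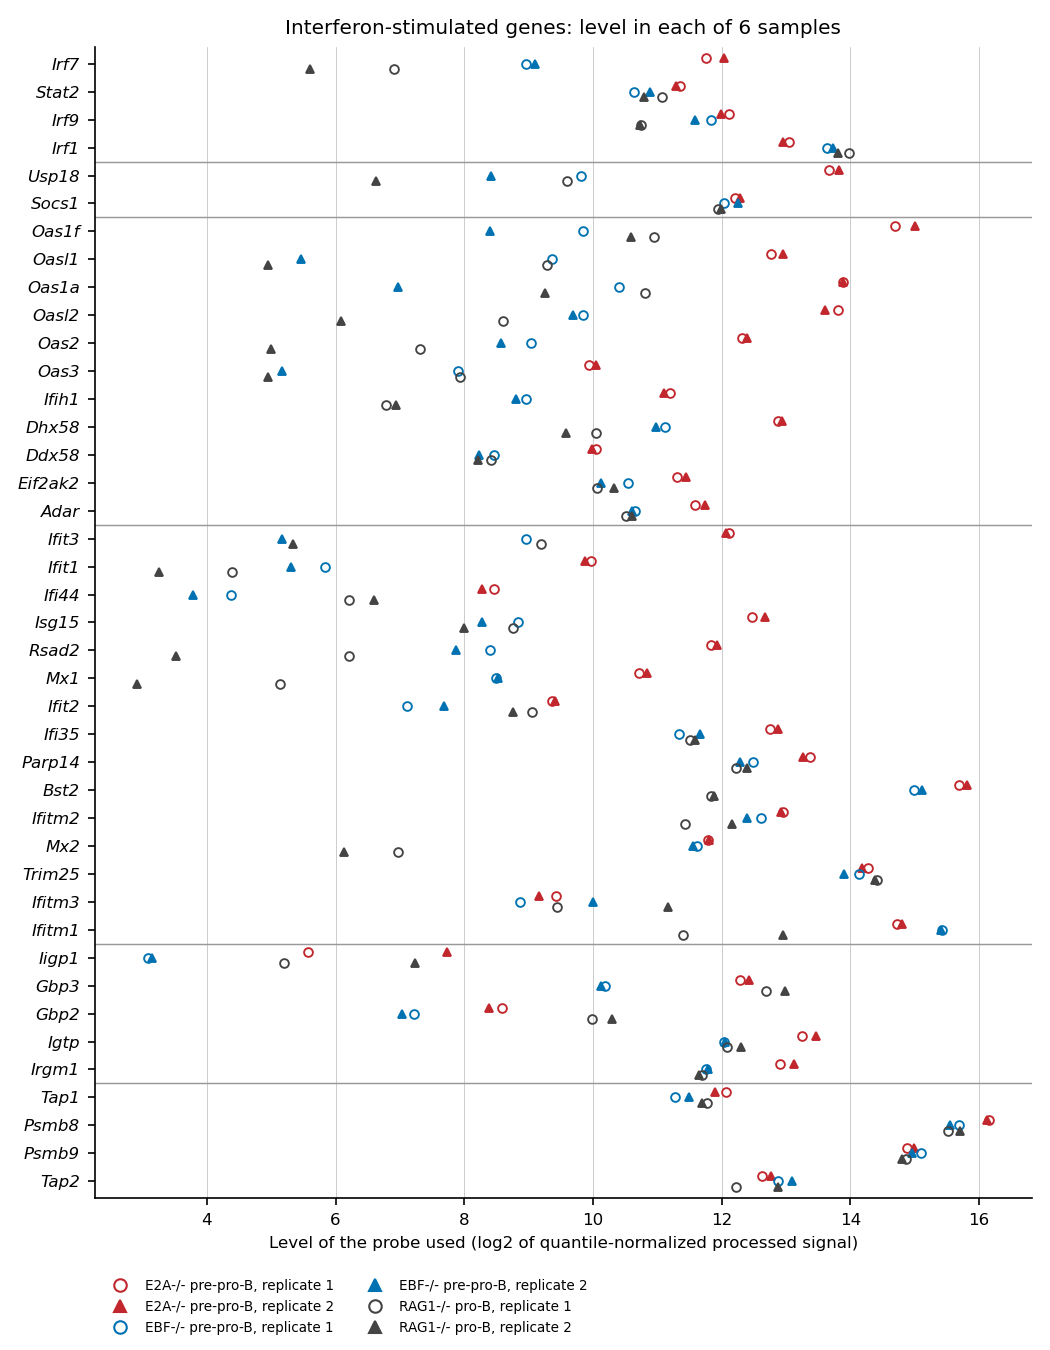
Level of the probe used for each of 41 interferon-stimulated genes (x axis, log2 signal) in the 6 samples, with open circles for replicate 1 and filled triangles for replicate 2, grouped by role (horizontal lines). Red E2A-/- points lie at the right of the other 4 points for 31 genes. The values of Ifi44 and Iigp1 in EBF-/- and of Ifit1 in RAG1-/- cells were not well above background.

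The genes took a few courses over the 3 groups. A set of 7 genes fell at each step, from E2A-/- to EBF-/- and again to RAG1-/- cells: Irf7, Oas2, Ifit1, Ifih1, Dhx58, Rsad2 and Bst2. Of these, Ifih1 and Dhx58 kept both calls in all 16 alternative settings. The step from EBF-/- to RAG1-/- cells lost its call for Ifit1 in 8 settings, 5 of which left out a sample (every one but RAG1-/- replicate 1), with log2 differences of -1.03 to -2.47 over samples left out and -0.48 with normexp background correction. For Oas2 and Rsad2 that step lost its call in 3 settings, EBF-/- replicate 1 left out among them, at -1.41 to -3.91 and -1.83 to -4.72 over samples left out. The step from E2A-/- to EBF-/- cells lost its call with EBF-/- replicate 2 left out for Irf7 and Ifit1, and for Oas2, Rsad2 and Bst2 with any of the 4 samples of these groups left out. In RAG1-/- cells Oas2 and Rsad2 were well above background in 1 of 2 samples and Ifit1 in none, and in EBF-/- cells Ifit1 was so in 1 of 2. Another 12 fell from E2A-/- cells to both other groups and were not called between those, Isg15, Oas1f and Usp18 among them. Stat2, Oas1a and Tap1 were called lower in EBF-/- than in E2A-/- cells and in no other comparison. Each of them lost this call with no filter on dim probes and with no trend in the prior. Stat2 and Tap1 also lost it with any E2A-/- or EBF-/- sample left out, and Oas1a with any of these but EBF-/- replicate 1. Over samples left out, the log2 difference was -0.40 to -0.72 for Stat2, -3.10 to -7.31 for Oas1a and -0.45 to -0.75 for Tap1. Another 5 (Irf9, Mx1, Mx2, Ifitm1 and Ifitm2) were called lower in RAG1-/- cells than in either pre-pro-B group and were not called between those. Gbp2 and Gbp3 were lowest in EBF-/- and highest in RAG1-/- cells, and Ifi44 and Ifit2 were lowest in EBF-/- cells as well. The difference of Gbp3 between RAG1-/- and E2A-/- cells, 0.49, lost its call in 7 of the 16 alternatives. By limma, 8 genes were called in no comparison: Oas3, Oasl1, Ifit3, Ifitm3, Iigp1, Tap2, Psmb9 and Socs1.

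**Figure D2:**
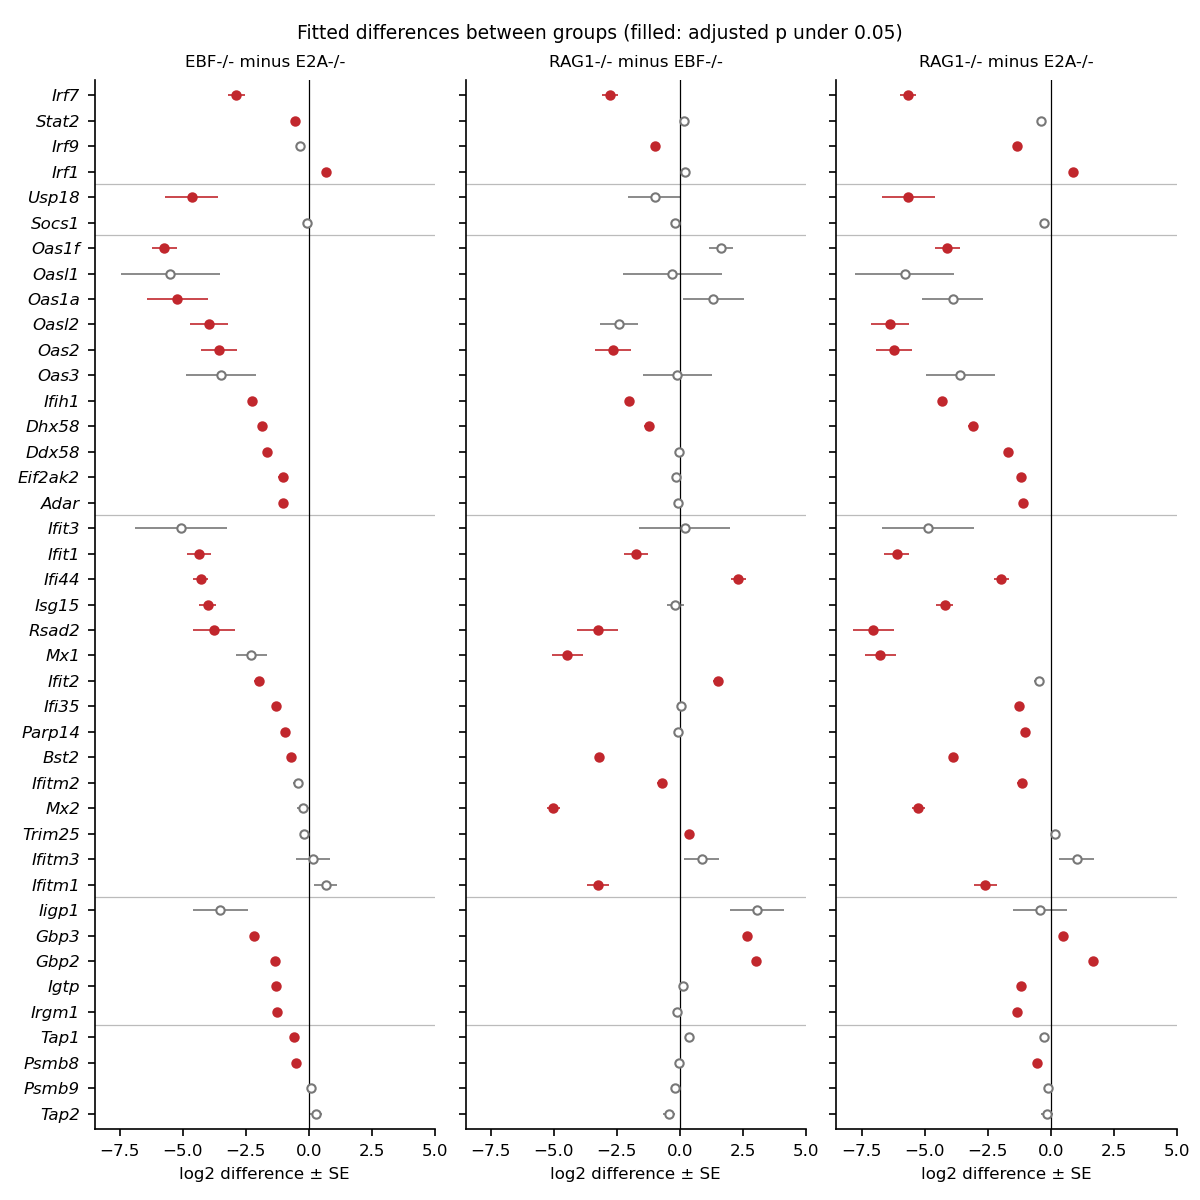
Fitted log2 difference (x axis, points with standard error, n = 2 samples per group) for each of 41 genes in the 3 comparisons of the groups, with filled red points for adjusted p under 0.05. Filled points lie left of zero for 26, 12 and 25 genes and right of zero for 1, 5 and 3. Points of Ifi44, Iigp1 and Ifit1 that involve a group not well above background are fitted values of uncertain size. The text gives bounds for Ifi44 and for Ifit1 against E2A-/- cells.

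Myeloid markers, like the interferon-stimulated genes, were mostly highest in E2A-/- cells, while the mean levels of NK and T cell markers were highest in EBF-/- cells. Of 14 measured macrophage and myeloid markers out of 15, 13 had both E2A-/- samples above the other 4 (19.1% of all genes). Against E2A-/- cells, 7 fell in EBF-/- and 9 in RAG1-/- cells, and 1, Csf2ra, rose in both (by 0.77 and 1.07). Of all genes, 11.6% fell and 12.6% rose in EBF-/- against E2A-/- cells, and 23% fell and 22.8% rose in RAG1-/- against E2A-/- cells. Their mean level was 11.78 and 11.83 in E2A-/- cells, 9.40 and 8.91 in EBF-/- cells and 7.57 and 9.13 in RAG1-/- cells, and Cd14, Clec5a and Trem2 were not well above background in EBF-/- cells. Within RAG1-/- cells the 2 sets went opposite ways, as the interferon-stimulated genes averaged 9.98 and 9.43. Csf1r, the growth factor receptor of macrophages, read 12.04 and 12.24 in E2A-/- cells, 7.90 and 4.99 in EBF-/- cells and 7.67 and 7.76 in RAG1-/- cells. Another 6 of these markers were not called between EBF-/- and E2A-/- cells. Adgre1, Mpo and Itgam, among those 6, differed by -0.09, -0.28 and -0.36. The 8 measured plasmacytoid dendritic cell markers out of 10 averaged 12.25 and 11.87, then 12.71 and 12.64, then 9.93 and 9.17, with 3 that rose (Ccr9, Cox6a2 and Pacsin1) and 1 that fell (Tcf4) in EBF-/- against E2A-/- cells. Ccr9, a chemokine receptor, read 11.08 and 12.19 in E2A-/- cells, 15.68 and 15.71 in EBF-/- cells and 7.53 and 5.65 in RAG1-/- cells. The log2 differences of the other 3 between EBF-/- and E2A-/- cells were 2.29, 0.79 and -1.36, and that of Siglech, a receptor of plasmacytoid dendritic cells, was -1.62 and was not called. The 8 NK markers measured out of 11 averaged 7.96 and 8.26, then 10.45 and 10.47, then 6.48 and 6.40, and 5 of them rose in EBF-/- against E2A-/- cells. The 9 T cell markers measured out of 11 averaged 8.08 and 8.51, then 10.62 and 10.49, then 8.40 and 8.49, with 6 that rose and 1 that fell. Of 6 mast cell markers 2 were measured, with means of 4.32 to 8.85, and limma called neither (1 at an unadjusted p under 0.05, higher in EBF-/- cells). Of 12 stromal markers 2 were measured, and their mean ranged from 7.32 to 10.06 with its highest values in EBF-/- cells. The part of other cell types in the differences above was not tested.

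RefSeq promoters (GRCm38.p6, from 250 bases before to 50 after a start) were found for 35 of the 43 genes by symbol. The entries not found were those of Mx1, Mx2, Oas2, Dhx58, Usp18, Iigp1, Tap2 and Parp14. The ISRE core, spelled GAAANNGAAA and searched on both strands, was present for 19 of 35 genes (54.3%) and for 3.99% of 27025 genes with a promoter in the table. Matches of this core that overlap each other were all counted, and Isg15 held 3 of them between 78 and 57 bases before its start. The GAS core TTCNNNGAA was present for 10 of 35 genes (28.6%), against 9.55% of all genes. E-boxes, the kind of site that E2A binds, were near the share of all genes: CAGCTG for 7 of 35 genes (20.0% against 18.3%) and CAGGTG, also read as CACCTG, for 7 (20.0% against 22.6%). A match of letters is a description of the sequence and not a site of binding.

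The 150 bases before the start are shown for the 6 genes with an entry that were called in all 3 comparisons with the largest change (Rsad2, Ifit1, Irf7, Ifih1, Ifi44 and Bst2) and for Oas1a and Oas1f, neighbours of 1 family that differ in the motif. Capitals mark the ISRE core as it reads on the strand of the gene, which is TTTCNNTTTC where the core lies on the opposite strand. The stretches lie at chr12:26456453-26456602 (minus strand), chr19:34640739-34640888 (plus strand), chr7:141266425-141266574 (minus strand), chr2:62646256-62646405 (minus strand), chr3:151749911-151750060 (minus strand), chr8:71537473-71537622 (minus strand), chr5:120907526-120907675 (minus strand) and chr5:120847217-120847366 (plus strand).
Rsad2: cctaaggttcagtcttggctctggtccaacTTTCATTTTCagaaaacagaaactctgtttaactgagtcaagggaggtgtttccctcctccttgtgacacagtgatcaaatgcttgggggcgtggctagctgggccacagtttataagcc
Ifit1: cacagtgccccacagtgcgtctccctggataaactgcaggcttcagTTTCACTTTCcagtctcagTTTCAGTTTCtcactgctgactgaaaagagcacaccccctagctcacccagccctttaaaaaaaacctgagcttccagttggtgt
Irf7: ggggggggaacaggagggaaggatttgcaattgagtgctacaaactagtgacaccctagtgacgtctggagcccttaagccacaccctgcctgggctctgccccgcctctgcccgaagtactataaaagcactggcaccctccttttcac
Ifih1: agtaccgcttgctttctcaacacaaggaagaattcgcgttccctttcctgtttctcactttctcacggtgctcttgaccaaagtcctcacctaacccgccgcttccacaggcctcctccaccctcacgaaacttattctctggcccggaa
Ifi44: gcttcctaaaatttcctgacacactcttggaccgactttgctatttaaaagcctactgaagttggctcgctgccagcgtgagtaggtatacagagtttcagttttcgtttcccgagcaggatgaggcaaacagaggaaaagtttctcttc
Bst2: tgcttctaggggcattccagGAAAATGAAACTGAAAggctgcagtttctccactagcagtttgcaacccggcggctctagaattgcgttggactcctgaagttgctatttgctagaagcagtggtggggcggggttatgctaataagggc
Oas1a: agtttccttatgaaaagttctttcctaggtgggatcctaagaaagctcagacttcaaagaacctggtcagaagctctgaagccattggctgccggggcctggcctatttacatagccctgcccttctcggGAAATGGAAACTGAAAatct
Oas1f: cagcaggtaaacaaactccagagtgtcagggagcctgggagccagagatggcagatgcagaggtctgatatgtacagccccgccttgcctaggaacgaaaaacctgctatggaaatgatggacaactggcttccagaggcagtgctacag

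Oas1a carried overlapping cores from 20 to 5 bases before its start, whereas Oas1f held none in its whole promoter, yet both were among the genes with the widest gaps between E2A-/- and EBF-/- cells. Ifit1 and Rsad2 held cores on the opposite strand, and Bst2 held an overlapping pair. Ifih1 held its core from 33 to 42 bases after the start, outside the stretch shown, and Irf7 and Ifi44 held none in the window. Among tested genes, 13 of 18 with a core and 9 of 15 without one fell in EBF-/- against E2A-/- cells, with median log2 differences of -1.52 and -1.03. These counts are a description and were not tested against each other.

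**Figure D3:**
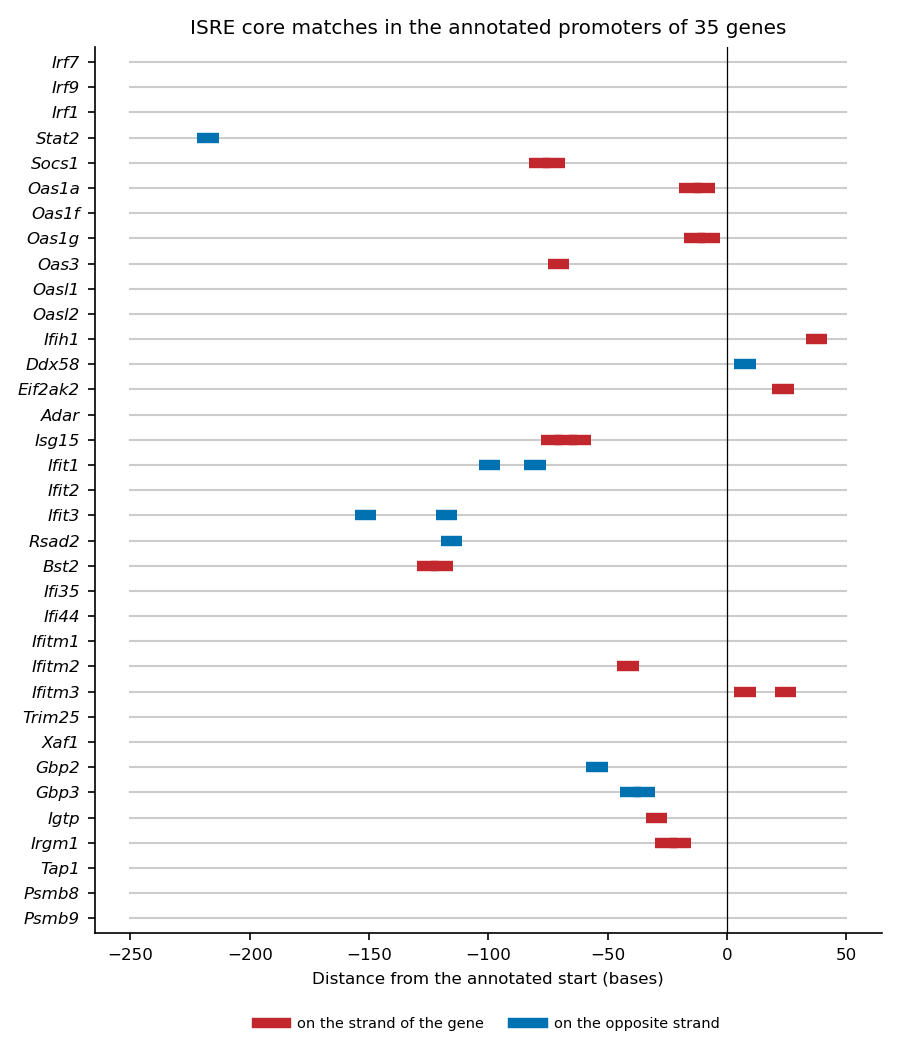
Position of each ISRE core match (coloured bars, red for the strand of the gene and blue for the opposite strand) relative to the annotated start, in bases (x axis), in the promoters of 35 interferon-stimulated genes. Matches occur in 19 genes, and 16 lines carry none.

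The regulators differed in size and direction, with 2 that fell, 1 that rose and 1 not called in EBF-/- against E2A-/- cells. Irf7, the factor that drives interferon alpha genes, read 11.76 and 12.04 in E2A-/- cells, 8.96 and 9.10 in EBF-/- cells and 6.91 and 5.60 in RAG1-/- cells (replicates 1 and 2 in this order here and below). The groups did not overlap, and Irf7 fell by 2.88 ± 0.33 on the log2 scale (SE, n = 2 per group) from E2A-/- to EBF-/- cells (limma adjusted p = 0.00795) and then fell by 2.77 ± 0.33 to RAG1-/- cells (adjusted p = 0.00428). Irf9, the DNA-binding part of the complex with Stat2, read 12.12 and 11.99, then 11.84 and 11.58, then 10.75 and 10.73 in the same groups. Irf9 was lower in RAG1-/- cells than in EBF-/- cells by limma (log2 difference -0.97 ± 0.10, adjusted p = 0.00344), and its difference of -0.35 between the pre-pro-B groups was not called. Stat2 read 11.35 and 11.29 in E2A-/- cells, 10.64 and 10.89 in EBF-/- cells and 11.07 and 10.80 in RAG1-/- cells, so EBF-/- and RAG1-/- samples overlapped. Irf1, an activator known from the interferon gamma response, went the other way, with 13.05 and 12.96 in E2A-/- cells, 13.63 and 13.73 in EBF-/- cells and 13.98 and 13.81 in RAG1-/- cells. Its rise from E2A-/- cells was 0.67 ± 0.10 to EBF-/- (limma adjusted p = 0.0134) and 0.89 ± 0.10 to RAG1-/- cells (adjusted p = 0.0031), and the promoter of Irf1 held a GAS core from 90 to 82 bases before its start and no ISRE core.

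The 2 inhibitors behaved differently. Usp18, which removes Isg15 from proteins and damps the type I receptor, read 13.66 and 13.82 in E2A-/- cells, 9.82 and 8.42 in EBF-/- cells and 9.60 and 6.63 in RAG1-/- cells. Both E2A-/- samples lay far above the rest, while the EBF-/- and RAG1-/- samples overlapped and were each widely spread. Usp18 fell by 4.65 ± 1.05 to EBF-/- cells (limma adjusted p = 0.0407) and by 5.65 ± 1.05 to RAG1-/- cells (adjusted p = 0.0139). The call in EBF-/- cells was lost with no filter on dim probes, with no trend in the prior and with any E2A-/- or EBF-/- sample left out. Over samples left out, that log2 difference was -3.17 to -6.11. Socs1, which binds JAK kinases, stayed between 11.94 and 12.28 in all 6 samples and was called in no comparison.

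Of the RNA sensors and the enzymes that act with them, 9 of 11 fell in EBF-/- and 8 of 11 in RAG1-/- against E2A-/- cells, none rose (also none at an unadjusted p under 0.05), and all 11 had both E2A-/- samples above the other 4. Over all genes, 11.6% and 23% fell in these comparisons, and 19.1% had both E2A-/- samples above the other 4. Oligoadenylate synthetases make short adenylate chains that switch on RNase L. Oas1f, a member of this family, read 14.70 and 15.01 in E2A-/- cells, 9.84 and 8.41 in EBF-/- cells and 10.95 and 10.59 in RAG1-/- cells, with a log2 difference of -5.74 ± 0.49 between EBF-/- and E2A-/- cells (limma adjusted p = 0.00452). Oas1a read 13.88 in both E2A-/- samples, 10.40 and 6.97 in EBF-/- and then 10.81 and 9.25 in RAG1-/- cells. It fell by 5.22 ± 1.22 to EBF-/- cells (limma adjusted p = 0.0435), and its difference of -3.89 ± 1.22 between RAG1-/- and E2A-/- cells missed the threshold.

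Oas2 and Oasl2 fell further in RAG1-/- cells. Oas2 read 12.31 and 12.40 in E2A-/- cells, 9.04 and 8.58 in EBF-/- cells and 7.31 and 5.00 in RAG1-/- cells, with no overlap of groups. Its log2 difference between RAG1-/- and E2A-/- cells was -6.21 ± 0.71 (limma adjusted p = 0.00356). Oasl2, of the synthetase-like branch, read 13.81 and 13.61, then 9.85 and 9.68, then 8.60 and 6.08 in the same order, and differed from E2A-/- cells by -3.97 ± 0.75 in EBF-/- cells (limma adjusted p = 0.0261) and by -6.38 ± 0.75 in RAG1-/- cells (adjusted p = 0.00382). Oas3 and Oasl1, which in mice limits production of Irf7 protein, had E2A-/- levels of 9.93 to 10.05 and 12.77 to 12.95. Neither was called, and their replicates differed widely: within EBF-/- cells Oas3 read 7.91 and 5.17 and Oasl1 9.37 and 5.46, and within RAG1-/- cells Oas3 read 7.94 and 4.95 and Oasl1 9.29 and 4.95. The other probe of Oas3 read 9.20 and 9.46 in E2A-/- cells, 3.09 in both EBF-/- samples and 5.19 and 4.79 in RAG1-/- cells. It did not show the wide spread within RAG1-/- cells, where it differed by -4.34 from E2A-/- cells. Its EBF-/- values lay under the lowest signals well above background in those channels (3.86 and 4.24). The spread within EBF-/- cells thus cannot be judged from it, and the size of its difference there, -6.24, is uncertain.

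The helicases that recognise foreign RNA in the cytoplasm were tighter between replicates by the probes used. Ifih1 (MDA5) read 11.20 and 11.10 in E2A-/- cells, 8.96 and 8.80 in EBF-/- cells and 6.78 and 6.93 in RAG1-/- cells. The steps were of like size, -2.27 from E2A-/- to EBF-/- cells and -2.03 ± 0.13 from there to RAG1-/- cells (limma adjusted p = 0.00116). Dhx58 (LGP2), which modulates the other helicases, read 12.88 and 12.93, then 11.12 and 10.98, then 10.05 and 9.58. Ddx58 (RIG-I) read 10.05 and 9.99 in E2A-/- cells and 8.22 to 8.46 in the other 4 samples, with EBF-/- and RAG1-/- cells overlapping. Dimmer probes of Ddx58 were less tight in EBF-/- cells, with 7.60 and 6.72 for one and 3.61 and 6.47 for another. They gave -0.57 and 1.65 for RAG1-/- against EBF-/- cells, and the 3.61 lay under the lowest signal well above background in its channel (3.86). Eif2ak2 (PKR), a kinase that halts translation on double-stranded RNA, read 11.30 and 11.45 in E2A-/- and 10.07 to 10.54 in the other samples. Adar, which edits double-stranded RNA, read 11.59 and 11.74 against 10.52 to 10.66. These last 3 genes fell in both groups relative to E2A-/- cells and none of them was called between EBF-/- and RAG1-/- cells.

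Among antiviral effectors, 8 of 15 fell in EBF-/- (11.6% of all genes) and 11 of 15 in RAG1-/- (23%) against E2A-/- cells, and none rose in either, also at an unadjusted p under 0.05. Isg15, a ubiquitin-like protein that is joined to other proteins, read 12.47 and 12.67 in E2A-/- cells, 8.84 and 8.27 in EBF-/- cells and 8.76 and 7.99 in RAG1-/- cells. It fell by 4.02 ± 0.33 to EBF-/- cells (limma adjusted p = 0.00439), and EBF-/- and RAG1-/- samples overlapped. Ifit1, which binds viral RNA that lacks the host's cap marks, read 9.98 and 9.88 in E2A-/- cells, 5.84 and 5.31 in EBF-/- cells and 4.39 and 3.26 in RAG1-/- cells. Its log2 difference in EBF-/- cells was -4.36 ± 0.49 (limma adjusted p = 0.0077). In RAG1-/- cells, where it was not well above background, it was by processed signals at least 54.9-fold lower than in E2A-/- cells (adjusted p = 0.00152). With normexp background correction, Ifit1 differed from E2A-/- cells by -2.883 in EBF-/- and by -3.365 in RAG1-/- cells on the log2 scale, the latter smaller than that bound. Ifit3, its partner, read 12.11 and 12.07 in E2A-/- cells but 8.96 and 5.17 in EBF-/- cells and 9.19 and 5.33 in RAG1-/- cells, and was not called. Ifit2, of the same family and locus, had another course, with 9.36 and 9.41, then 7.11 and 7.68, then 9.05 and 8.75, and rose by 1.51 from EBF-/- to RAG1-/- cells.

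Rsad2 (viperin), which makes a chain-ending nucleotide, read 11.83 and 11.93 in E2A-/- cells, 8.40 and 7.88 in EBF-/- cells and 6.21 and 3.52 in RAG1-/- cells. No group overlapped another, and its log2 difference from E2A-/- to RAG1-/- cells was -7.03 ± 0.82 (limma adjusted p = 0.00383). The size of that difference is uncertain: RAG1-/- replicate 2 was not well above background, its value lay under 3.90, the lowest signal well above background in that channel, and the other 2 probes of Rsad2 gave -5.27 and -5.45. Of the -7.03, -3.26 ± 0.82 lay between EBF-/- and RAG1-/- cells (limma adjusted p = 0.0337). Mx1 and Mx2, dynamin-like GTPases that block virus particles, parted in EBF-/- cells. Mx1 read 10.72 and 10.84 in E2A-/- cells, 8.49 and 8.52 in EBF-/- cells and 5.14 and 2.92 in RAG1-/- cells, and fell by 4.47 ± 0.61 from EBF-/- to RAG1-/- cells (limma adjusted p = 0.00634), while its difference of -2.29 between the pre-pro-B groups was not called. Its RAG1-/- replicate 2 was likewise not well above background, a second probe gave -3.00 for RAG1-/- against EBF-/- cells, and normexp background correction gave -2.07. Mx2 read 11.78 and 11.81, then 11.61 and 11.55, and then 6.98 and 6.13, so its log2 difference of -5.02 ± 0.26 lay between EBF-/- and RAG1-/- cells (limma adjusted p = 0.00076). Bst2 (tetherin), which holds budding virus on the cell, read 15.69 and 15.81 in E2A-/- cells, 14.99 and 15.12 in EBF-/- cells and 11.84 and 11.88 in RAG1-/- cells. Its log2 difference was -0.70 between the pre-pro-B groups and -3.19 from EBF-/- to RAG1-/- cells.

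Of the membrane proteins that block viral entry, Ifitm1 read 14.73 and 14.80 in E2A-/- cells, 15.42 and 15.41 in EBF-/- cells and 11.40 and 12.95 in RAG1-/- cells. Ifitm2 read 12.96 and 12.92, 12.61 and 12.39, and 11.43 and 12.16, and both were called lower in RAG1-/- cells than in either pre-pro-B group. Ifitm3, at 8.87 to 11.17 with overlapping groups, was not called. Ifi44 read 8.46 and 8.27 in E2A-/- cells, 4.37 and 3.78 in EBF-/- cells and 6.20 and 6.60 in RAG1-/- cells. It was not well above background in EBF-/- cells. By processed signals it was at least 16.6-fold lower there than in E2A-/- cells (limma adjusted p = 0.00347). It was at least 4.27-fold higher in RAG1-/- than in EBF-/- cells (adjusted p = 0.00532). With normexp background correction these log2 differences were -1.865 and 0.81, both smaller than the bounds, so their size is uncertain. Ifi35, which pairs with Nmi, read 12.75 and 12.88 in E2A-/- cells and 11.33 to 11.66 elsewhere. Parp14, an ADP-ribosyltransferase, read 13.37 and 13.27 in E2A-/- cells and 12.23 to 12.48 elsewhere. Its other, dimmer probe differed from E2A-/- cells by -0.65 in EBF-/- cells but by -0.005 in RAG1-/- cells, so it did not show the fall there. Trim25, a ubiquitin ligase that acts on RIG-I, stayed between 13.90 and 14.41 in all 6 samples, and its difference of 0.38 between RAG1-/- and EBF-/- cells was called. Its other probe read 11.02 and 10.92 in E2A-/- cells, 9.31 and 8.92 in EBF-/- cells and 10.94 and 10.99 in RAG1-/- cells.

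GTPases that attack vacuoles holding microbes fell in EBF-/- cells for 4 of 5 genes (11.6% of all genes), but 2 of them rose well above the EBF-/- level in RAG1-/- cells (21.2% of all genes rose). Gbp2, a guanylate-binding protein, read 8.58 and 8.38 in E2A-/- cells, 7.21 and 7.03 in EBF-/- cells and 9.99 and 10.30 in RAG1-/- cells. It fell by 1.36 ± 0.15 to EBF-/- cells (limma adjusted p = 0.00726) and then rose by 3.02 ± 0.15 (adjusted p = 0.000713). Gbp3, its neighbour on chromosome 3, read 12.28 and 12.42, then 10.19 and 10.12, then 12.69 and 12.98, with a log2 difference of -2.19 ± 0.13 from E2A-/- to EBF-/- cells (limma adjusted p = 0.00273) and a rise of 2.68 ± 0.13 from there to RAG1-/- cells (adjusted p = 0.000713). Both promoters held the ISRE core, Gbp2 from 59 to 50 and Gbp3 from 45 to 30 bases before the start. Igtp and Irgm1, of the immunity-related GTPase family, had no such rise: Igtp read 13.25 and 13.46 in E2A-/- and 12.04 to 12.30 in the other samples. Irgm1 read 12.90 and 13.12 against 11.64 to 11.78. Iigp1 read 5.57 and 7.74 in E2A-/- cells, 3.09 and 3.15 in EBF-/- cells and 5.21 and 7.23 in RAG1-/- cells, and although it was not well above background in EBF-/- cells it was called in no comparison.

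The genes of peptide supply to class I molecules changed least. Tap1, a subunit of the peptide transporter, read 12.07 and 11.90 in E2A-/- cells, 11.28 and 11.49 in EBF-/- cells and 11.77 and 11.70 in RAG1-/- cells, and fell by 0.60 ± 0.12 to EBF-/- cells (limma adjusted p = 0.0305). Psmb8, an immunoproteasome subunit, read 16.16 and 16.12 in E2A-/- cells and 15.51 to 15.70 elsewhere, a log2 difference of -0.54 ± 0.08 for RAG1-/- against E2A-/- cells (limma adjusted p = 0.00751). Psmb9, another subunit, at 14.80 to 15.10, and Tap2, the other transporter subunit, at 12.23 to 13.09, were not called. These 4 genes lie in 1 locus of chromosome 17, and their log2 differences lay between -0.60 and 0.35 in the 3 comparisons.

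Several of these genes read higher in the EBF-/- and RAG1-/- samples that shared an array with E2A-/- cells than in their replicates on other arrays. EBF-/- replicate 1 exceeded replicate 2 by more than 1 on the log2 scale for 6 of 41 genes and lay more than 1 below it for 1, against 158 and 442 of all 12839 genes. RAG1-/- replicate 1 exceeded replicate 2 by more than 1 for 11 of 41 genes and lay more than 1 below for 3, against 281 and 367 of all genes. The 4 widest gaps in EBF-/- cells, each given with that of RAG1-/- cells after it, were those of Oasl1 (3.91 and 4.34), Ifit3 (3.79 and 3.86), Oas1a (3.43 and 1.56) and Oas3 (2.74 and 2.99). The other probe of Oas3 did not show the RAG1-/- gap, and it was too dim in EBF-/- cells to show one there. For the 12 of these genes that both E2A-/- samples held more than 3 above EBF-/- replicate 2, the RAG1-/- replicates differed by a median of 2.42, and for the 170 genes chosen alike from all genes by 0.20. For the 17 that both E2A-/- samples held more than 3 above RAG1-/- replicate 2, the EBF-/- replicates differed by a median of 0.52, and for 461 genes chosen alike by 0.09. The part of array sharing in the results was not tested. An alternative chosen after seeing the data left out the 2 samples that shared an array with E2A-/- cells. In it, the 72 called differences of the 41 genes all kept their direction. This fit left EBF-/- and RAG1-/- cells with 1 sample each, so only the E2A-/- pair measured the spread between replicates. Its calls therefore cannot show whether the differences hold apart from array sharing.

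**Figure D4:**
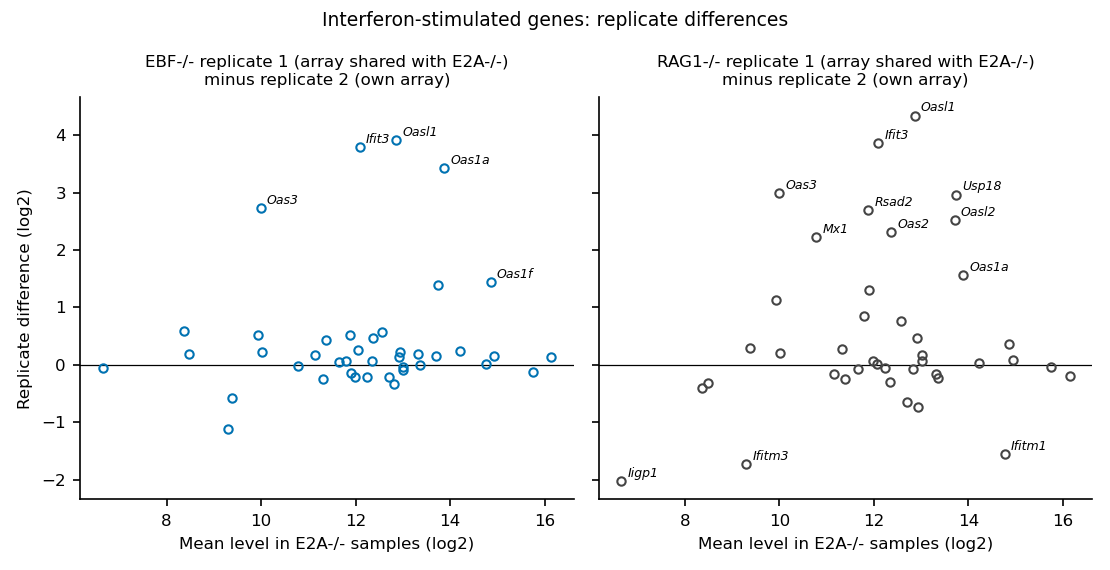
Difference between replicate 1, on an array shared with an E2A-/- sample, and replicate 2 (y axis, log2) of EBF-/- cells (left) and RAG1-/- cells (right), against the mean level in E2A-/- cells (x axis, log2), for 41 interferon-stimulated genes. Oas3, Oasl1, Ifit3 and Oas1a lie above 1.5 in both panels, while most genes lie near 0.

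The interferon genes that were measured were dim. Of 15 ligands, 6 were measured, and limma called none of them in any comparison, with 1 at an unadjusted p under 0.05 between RAG1-/- and EBF-/- cells and none in the other 2 comparisons. The other 9, Ifnb1 and Ifng among them, had no probe kept for the fit. Whether they lacked a probe, had flagged spots or were too dim is not told apart here. Among receptors, Ifnar1, a chain of the type I receptor, rose by 0.54 on the log2 scale in EBF-/- against E2A-/- cells, and Ifngr2, a chain of the gamma receptor, had a log2 difference of -1.56. Ifnar1, like the genes named for a small count below, was named after its values were seen. Stat4, which carries interleukin-12 signals, was at least 54.3-fold and Ifnlr1, a chain of the lambda receptor, at least 20.1-fold higher in RAG1-/- than in EBF-/- cells, where neither was well above background. Among 15 of 17 sensors and adaptors that were measured, 1 rose (Irf3) and 3 fell (Zbp1, Samhd1 and Unc93b1) in EBF-/- against E2A-/- cells, where 12.6% of all genes rose and 11.6% fell. Zbp1, a sensor of Z-form nucleic acid, read 11.00 and 11.10 in E2A-/- cells, 7.25 and 5.85 in EBF-/- cells and 9.11 and 8.62 in RAG1-/- cells. From EBF-/- to RAG1-/- cells, the log2 difference was -3.30 for Tlr7, a receptor for single-stranded RNA, and -2.35 for Cgas, a DNA sensor.

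Other interferon-stimulated genes, 39 measured of 44 listed, fell for 28 and rose for 1 (Ifi27) in EBF-/- against E2A-/- cells, with a median log2 difference of -1.19. They fell for 21 and rose for 8 in RAG1-/- against E2A-/- cells (median -0.59), and fell for 10 and rose for 14 from EBF-/- to RAG1-/- cells. Of all genes, 11.6% fell and 12.6% rose in EBF-/- against E2A-/- cells. In RAG1-/- cells, 23% fell and 22.8% rose against E2A-/- cells, and 22.5% fell and 21.2% rose against EBF-/- cells. The 8 of 39 that rose against E2A-/- cells and the 10 of 39 that fell from EBF-/- cells lay near these shares. Rtp4 read 15.38 and 15.51 in E2A-/- cells, 12.94 and 13.09 in EBF-/- cells and 9.05 and 9.71 in RAG1-/- cells. Lgals3bp, a secreted glycoprotein, read 15.37 in both E2A-/- samples, 13.87 and 13.71 in EBF-/- and then 10.72 and 10.79 in RAG1-/- cells. Cxcl10, a chemokine, was at least 18.6-fold lower in EBF-/- and at least 18.5-fold lower in RAG1-/- than in E2A-/- cells, and Slfn5 at least 11.7-fold and 25.4-fold lower. Of 7 other interferon regulatory factors and cofactors, 2 rose (Irf2 and Irf2bp2) and 1 fell (Irf2bpl) in EBF-/- against E2A-/- cells, and Irf4 rose by 5.17 from EBF-/- to RAG1-/- cells. Of 10 further inhibitors, 2 rose and 1 fell in EBF-/- cells. Those that rose were Ptpn11, a phosphatase, and Socs2, a relative of Socs1 (by 1.26), and the one that fell was Isg20, which is known as an RNA exonuclease rather than an inhibitor of the signal. Of 13 measured class I genes out of 14, limma called none higher and 2 lower (Tapbp and Psme2) in EBF-/- against E2A-/- cells, with none higher and 6 lower at an unadjusted p under 0.05. The widest difference among the 13 was that of B2m, the light chain of class I molecules, at 0.79 between RAG1-/- and EBF-/- cells.

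Peaks were counted within 50 kb of a probe's position (build mm8, as the array design gives it) for 41 of the 43 genes, which form 29 loci when probes within 100 kb are joined. Oas1g was placed although it was not tested, Xaf1 had no probe, and the design puts the probe of Isg15 on another chromosome than the gene. Peak calls and scores are the authors', and each list comes from 1 sample, so lists of unlike length give no change between samples. In 20 of 24 lists the share of these genes with a peak was within 10 percentage points of the share of 12204 placed genes. It was higher by more than that for E2A in RAG1-/- cells (28 genes, 68.3% against 57.4%) and for H3K4me1 in E2A-/- cells after 1 h (92.7% against 78.8%) and 6 h (78.0% against 65.5%) of E47-ER. These excesses depended on the window and probe: for E2A in RAG1-/- cells the share was within 10 points at 10 and 100 kb, with the higher-scoring peaks alone and with any probe, and within 10 kb the H3K4me1 shares after E47-ER were 24.4% against 32.8% at 1 h and 14.6% against 22.7% at 6 h. The share at 50 kb was lower for H3K4me1 in A12 cells with bHLH-ER (41.5% against 54.3%). EBF1 in RAG1-/- cells had a peak near 8 genes (19.5% against 13.1%) and FOXO1 near 9 (22.0% against 15.5%), and within 10 kb neither had one near any of the 41, where 3.18% and 3.83% of all placed genes had one. Within 100 kb the shares were 39.0% against 22.6% for EBF1 and 41.5% against 26.3% for FOXO1, and 43.9% against 27.9% for H3K27me3 in RAG1-/- cells. The mock list had 1 peak, near Oasl1 and Oasl2, and no peak near these genes in the other 23 lists overlapped a mock peak. These shares rest on 29 loci and were not tested.

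**Figure D5:**
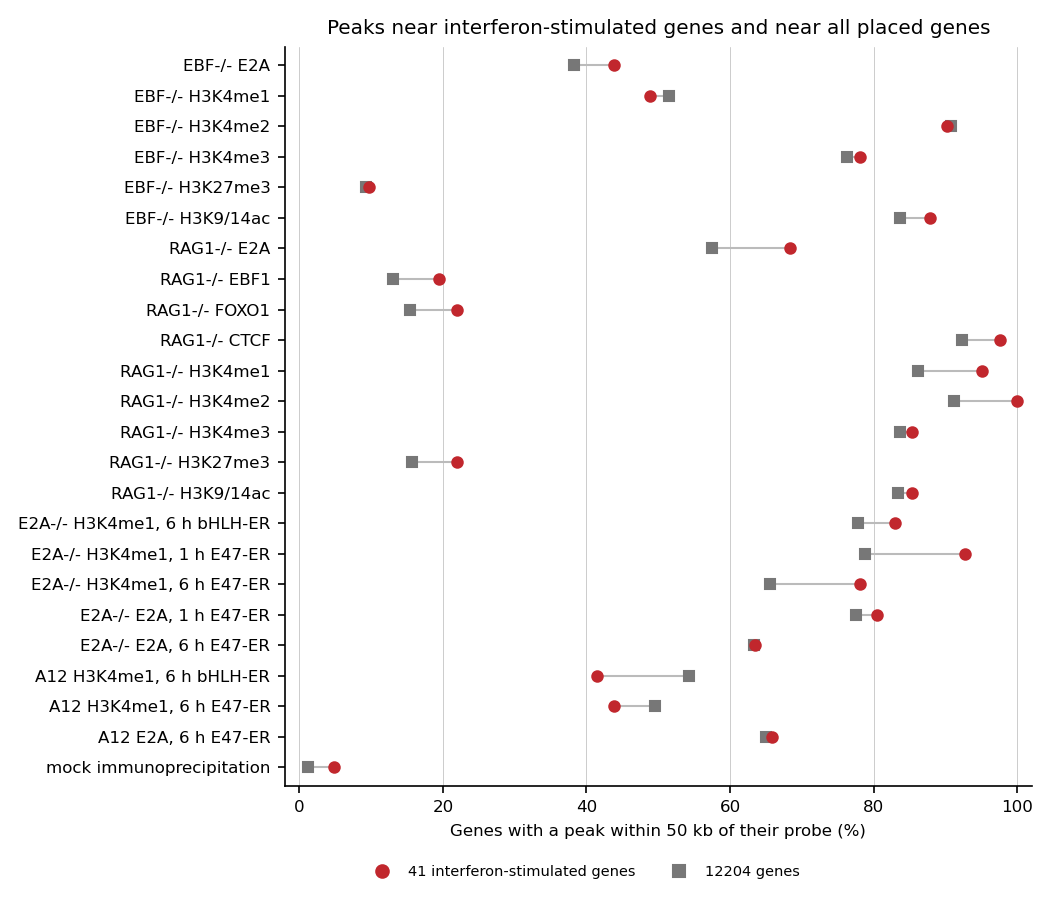
Share of genes with a peak within 50 kb of the probe (x axis, percent) in each of 24 peak lists, for 41 placed interferon-stimulated genes (red circles) and 12204 placed genes (grey squares). Both marks lie within 10 percentage points of each other in 20 lists.

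Of 19 distinct E2A peaks near the 41 genes in EBF-/- cells, 8 (42.1%) overlapped an E2A peak in RAG1-/- cells by at least 1 base, against 43.8% of peaks near all placed genes, and the 8 were 16.7% of 48 peaks in RAG1-/- cells (18.8% near all genes). H3K4me1 peaks of EBF-/- cells were shared with RAG1-/- cells for 15 of 27 (55.6%), against 39.5% near all placed genes. Near Bst2, E2A had 4 peaks in EBF-/- cells, the closest at chr8:74464824-74465023, and 1 in RAG1-/- cells, its centre at -46137 bases from the Bst2 probe. Within 50 kb of Bst2 also lay 2 H3K27me3 peaks in RAG1-/- cells and none in EBF-/- cells. H3K27me3, a mark of silenced chromatin, had a peak near 4 of the 41 genes in EBF-/- cells (9.8%, against 9.3% of all placed genes). In RAG1-/- cells it had one near 9 (22.0%, against 15.7% of all placed genes). These lists hold 1311 and 2130 peaks, and both have a peak near Dhx58 and Rsad2.

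Gbp2 and Gbp3, 2 of the 5 genes that rose from EBF-/- to RAG1-/- cells, had no E2A peak within 50 kb in EBF-/- cells and 1 and 4 in RAG1-/- cells, with the shared peak at chr3:142557002-142557201 for Gbp2. Of the other genes that rose, Trim25 had 1 E2A peak in EBF-/- and 2 in RAG1-/- cells, Ifit2 had 0 and 2, and Ifi44 had none in either list. H3K4me1, a mark of enhancers, had 1 peak near each of Gbp2 and Gbp3 in EBF-/- cells and 4 and 6 in RAG1-/- cells, in lists of 7544 and 23054 peaks. Ifi44 and Iigp1, which were not well above background in EBF-/- cells, had no peak in any of the 6 EBF-/- lists. The same held for Oas1g and for Oas1a, which was well above background in both EBF-/- samples. Ifi44 and Iigp1 had 2 and 1 peaks each of H3K4me1 and of H3K4me2 in RAG1-/- cells. Near Oas2, E2A had no peak in EBF-/- and 4 in RAG1-/- cells, of which the one at chr5:120965163-120965362 overlapped an EBF1 peak (chr5:120965141-120965340). Socs1, whose level hardly varied, had 14 E2A peaks after 1 h and 9 after 6 h of E47-ER in E2A-/- cells and 13 in A12 cells. Ifitm1 also had 14 after 1 h, and Bst2 also had 9 after 6 h. In RAG1-/- cells Socs1 had 5 E2A, 2 EBF1 and 2 FOXO1 peaks, with an EBF1 peak at chr16:10683233-10683432. Near Ifitm3, a FOXO1 peak lay at chr7:140850589-140850664, with its centre at -10415 bases from the Ifitm3 probe, and the same peak counts for Ifitm1 and Ifitm2. For Isg15 the probe of its RefSeq neighbour Agrn, at chr4:155029673-155029732, was used apart from the counts: within 50 kb of it lay 1 CTCF peak in RAG1-/- cells and 1 H3K4me1 peak in each of 3 E2A-/- lists, no peak in any EBF-/- list, and 1 E2A peak after 1 h of E47-ER.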

How the data were processed

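RNA of 6 samples was measured on 4 Agilent two-colour arrays. Per the file headers, the deposited intensity values are processed signals of Feature Extraction 9.5.3.1, with background and dye corrected on each array. The channel of each sample was taken from its labelled dye, and the other channel of the 2 arrays that carried 1 described sample was not used. The log2 values computed from the deposited intensities were quantile-normalized over the 6 channels, spots of a probe were averaged, and a probe was kept if some group had both its samples well above background. The brightest probe stood for its gene. limma 3.58.1 (R 4.3.3) fitted group and dye, with the array as a random block (correlation -0.0248) and a trended prior. P-values were adjusted over 12839 genes by Benjamini-Hochberg, with a threshold of 0.05.

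A bound, at least N-fold, for a gene not well above background in 1 group comes from the higher of its own signal and the lowest signal well above background in each sample. It holds for processed signals alone. Some spots above that lowest signal were not well above background, and normexp background correction gave smaller differences for Ifit1 and Ifi44. Peak lists were made by the authors with HOMER on mm8, per the submitters' processing notes, and the deposited peak scores were used only to take the higher-scoring peaks of a list. A peak counted as near a gene when its centre lay within 50 kb of the probe. Promoter letters are RefSeq's (GRCm38.p6), and no coordinates were converted between builds. The genes and lists were chosen with earlier results of these data known. All of the 43 genes are described, with values per sample for those called in at least 1 comparison, and with error and adjusted p for at most 3 per role and comparison. Genes of the pathway lists are named for large called changes, at most 4 per list, or because few genes of their list were called in that direction. The fit was tested on simulated data. A result of the list of receptors and signal carriers is not reported here.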

Additional observations from a re-analysis of the deposited data

How the results depend on the processing

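Called differences of the 41 genes numbered 72 over the 3 comparisons. All 72 kept their direction under the 16 alternatives, and 45 also kept their call under each. The number of genes called between EBF-/- and E2A-/- cells was 27 and ranged from 9 to 36 with 1 sample left out: 9 without EBF-/- replicate 2, 12 without EBF-/- replicate 1, 15 without E2A-/- replicate 2 and 36 without either RAG1-/- sample. With an EBF-/- or E2A-/- sample left out, that group has 1 sample, which is assumed to vary like the others. The same holds for EBF-/- and RAG1-/- cells when the samples that shared an array with E2A-/- cells are left out. Over all genes, the same comparison gave 1620 higher and 1490 lower. These numbers were 230 and 236 when EBF-/- replicate 2 was left out, 283 and 311 for EBF-/- replicate 1, 768 and 527 for E2A-/- replicate 1, 725 and 565 for E2A-/- replicate 2, 2770 and 2590 for RAG1-/- replicate 1 and 2771 and 2599 for RAG1-/- replicate 2. They were 1069 and 913 with no filter on dim probes, and 1058 and 959 with no trend in the prior. RAG1-/- against EBF-/- cells gave 2719 higher and 2895 lower, which became 1068 and 1246 when EBF-/- replicate 1 was left out and 1138 and 1334 for EBF-/- replicate 2. RAG1-/- against E2A-/- cells gave 2924 higher and 2950 lower, and 1676 and 1668 with E2A-/- replicate 2 left out. The genes called ranged from 12 to 21 between RAG1-/- and EBF-/- cells and from 26 to 35 between RAG1-/- and E2A-/- cells over all alternatives. With the replicate number as a block in place of the dye term, 30, 19 and 32 of the 41 genes were called, with 1578 higher and 1468 lower over all genes between EBF-/- and E2A-/- cells, 2663 and 2829 between RAG1-/- and EBF-/- cells, and 2932 and 2909 between RAG1-/- and E2A-/- cells. Replicate numbers mark no pairing in the labels, and the replicate differences correlated between groups at -0.40, 0.17 and 0.02 across genes. Peak lists more than 10 points above the share of all genes numbered 3, and 2 to 3 under the other windows, scores and probes, though not always the same lists. The cause of these shifts was not tested.

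With 2 samples per group, 4 arrays and 1 slide, the number of arrays limits the precision. Genes dim in 1 group have only bounds, which hold for processed signals alone. Each peak list is 1 sample.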
